A study of Homo sapiens with 2 samples.

Results

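The 42 genes described here encode the cytosolic factors that start, extend and end protein synthesis: 34 initiation factors, 6 elongation factors and 2 release factors. They were taken by symbol from the protein-coding features of the deposited count tables. The rule uses no measured value, but the set was chosen with earlier results of these data known. All 42 were found among 741078 listed features. Of the listed features, 20195 are nuclear protein-coding genes that overlap no tRNA feature (called mRNA genes below), and all 42 are among them. RNA bound to hTrmt13 (TRMT13), a human tRNA methyltransferase, was measured by CLIP-seq, in which RNA crosslinked to a protein is recovered with an antibody and sequenced. There was 1 group with 2 replicates, both from MDA-MB-231, a human cell line established from a breast carcinoma. In both, the recovered RNA was treated with AlkB-type enzymes that remove modifications before the adaptor was joined. The labels name no genotype change or drug. Nothing in them tells if each replicate was its own culture, and the spread between the 2 may be technical. With 0 control libraries analysed here, counts show recovery, which was not set against any background, and the amount of each mRNA in the cells was not measured.

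Initiation factors bring the initiator tRNA, the mRNA and the small ribosomal subunit together at a start codon. In elongation, eEF1A delivers each aminoacyl-tRNA to the ribosome, the eEF1B subunits recharge eEF1A with GTP, and eEF2 moves the tRNAs and the mRNA along by a codon. The release factors eRF1 and eRF3 recognise a stop codon and free the finished protein. The mRNAs of several of these factors, such as EEF1A1 and EEF2, begin with a terminal oligopyrimidine (TOP) tract and are among the more abundant in growing cells. Many have left processed pseudogenes, copies of the spliced mRNA pasted elsewhere in the genome. Copies elsewhere proved to matter for the counts of EEF1A1, EEF1G, EIF5A and EEF1B2. EIF5AL1, the most counted copy of EIF5A, is listed as protein-coding.

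The first 120 coding bases of EEF1A1, EEF1G and EIF5A are shown beside those of their 2 most counted copies, 5′ to 3′. They come from the GENCODE 29 transcripts on the GRCh38 build, with capitals marking bases of a copy that differ from the parent gene.
EEF1A1: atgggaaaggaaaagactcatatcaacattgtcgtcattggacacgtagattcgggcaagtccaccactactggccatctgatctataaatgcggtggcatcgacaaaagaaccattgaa
EEF1A1P5: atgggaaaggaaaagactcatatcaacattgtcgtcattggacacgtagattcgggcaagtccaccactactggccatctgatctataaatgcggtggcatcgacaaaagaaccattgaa
AC002480.6: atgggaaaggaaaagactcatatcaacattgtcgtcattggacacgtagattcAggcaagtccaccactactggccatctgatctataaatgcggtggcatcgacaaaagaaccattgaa
EEF1G: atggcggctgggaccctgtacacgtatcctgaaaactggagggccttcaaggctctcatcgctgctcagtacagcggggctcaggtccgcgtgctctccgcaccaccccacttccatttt
RP11-371A22.1: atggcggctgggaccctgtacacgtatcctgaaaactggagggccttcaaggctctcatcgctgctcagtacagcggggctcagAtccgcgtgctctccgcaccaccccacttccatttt
RP1-241P17.3: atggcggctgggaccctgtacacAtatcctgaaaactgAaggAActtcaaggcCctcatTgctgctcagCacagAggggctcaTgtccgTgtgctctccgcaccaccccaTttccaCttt
EIF5A: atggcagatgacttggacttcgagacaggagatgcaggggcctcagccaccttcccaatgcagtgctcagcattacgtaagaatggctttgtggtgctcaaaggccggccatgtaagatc
EIF5AL1: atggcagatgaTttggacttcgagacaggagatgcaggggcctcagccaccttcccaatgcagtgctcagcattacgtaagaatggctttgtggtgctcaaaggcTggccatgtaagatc
EIF5AP4: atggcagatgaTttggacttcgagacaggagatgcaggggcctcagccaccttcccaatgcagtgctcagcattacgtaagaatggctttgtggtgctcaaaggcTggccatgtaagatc
In this stretch EEF1A1P5 differed from EEF1A1 at 0 bases and AC002480.6 at 1, RP11-371A22.1 differed from EEF1G at 1 base and RP1-241P17.3 at 12, and each of the EIF5A copies differed at 2.

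Each replicate had a count table for either read mate (R1 and R2), and the values given are those of R1 where no mate is named. R1 totals were 27907799 counts for replicate 1 and 20590398 for replicate 2. The mRNA genes took 5.39% and 10.6% of them, and most mRNA genes had a higher CPM (count divided by the library total, times 1000000) in replicate 2. A feature's count covers its listed span, introns included. Reads were amplified by PCR without molecular identifiers, so the intervals given here cover counting error only. Among genes usually present in MDA-MB-231, VIM stood at 24.4 and MSN at 11.4 CPM, but CD44, AXL and CAV1 lay between 0.385 and 0.937. Genes usually low or absent there (CDH1, ESR1, PGR and GATA3) lay between 0.0971 and 1.96 CPM. Markers of liver, blood and neuronal cells had a median of 0.178 CPM, with 0 counts for ALB and CD3E and 7.88 CPM for the neuronal gene SYT1. The labelled line was therefore not clearly marked by these genes.

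The translation factors were recovered above most mRNA genes. All 42 passed a mean count of 10, and 13120 of the 20195 mRNA genes did. Their median level was 6.07 CPM in replicate 1 and 14.9 in replicate 2, with a mean of 10.5 ± 6.27 CPM (SD, n = 2), against 3.39 ± 1.80 CPM over the mRNA genes past that mean. Dividing by coding length (the longest coding sequence of a gene in GENCODE 29) gave a median of 8.03 ± 4.73 CPM per coding kilobase against 2.35 ± 1.23 (SD, n = 2 each). On CPM per coding kilobase 26 of the 42 lay in the highest 10% of mRNA genes with a coding length and 4 in the highest 1%. These are descriptions with no test, and mRNA abundance was not matched. By class, the median was 10.9 ± 6.98 CPM for initiation, 12.8 ± 8.56 for elongation and 10.3 ± 5.88 for termination factors (SD, n = 2 each), and these differ by less than the spread between replicates.

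**Figure D1:**
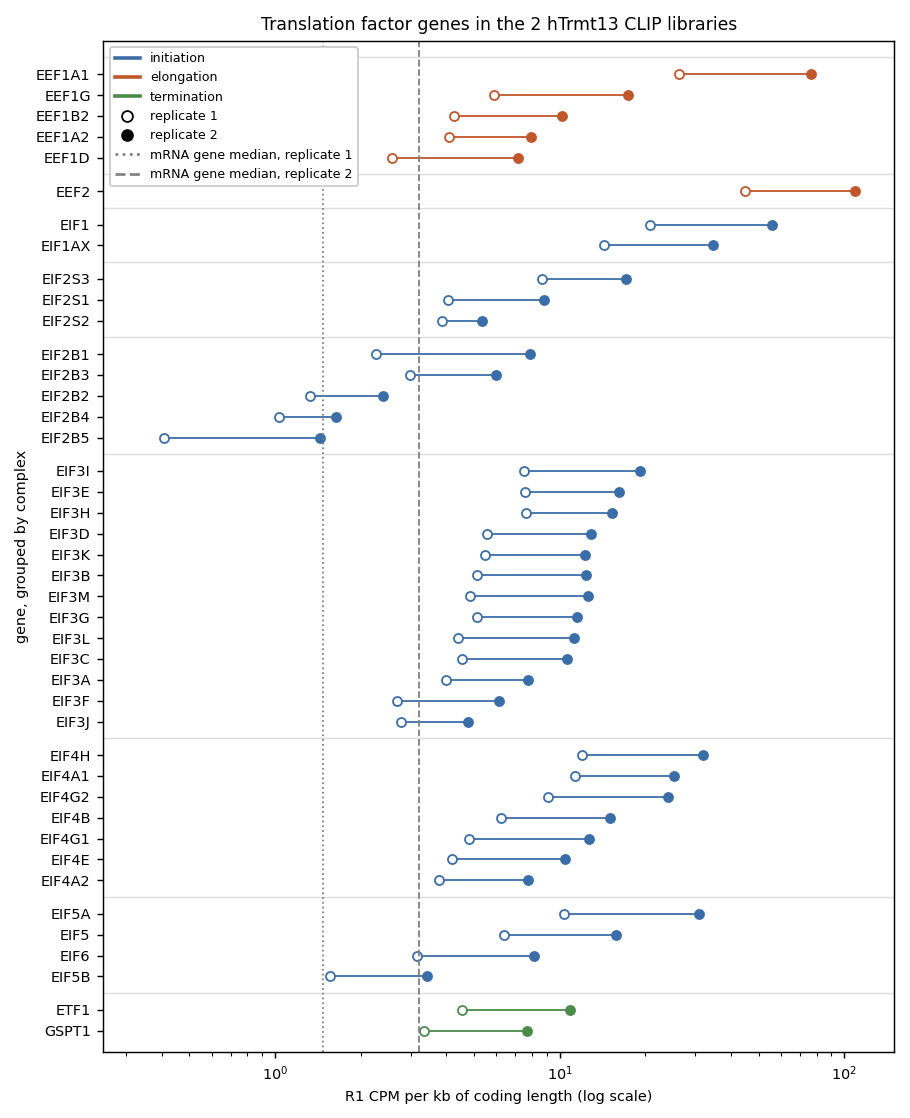
R1 CPM per kilobase of coding length (log scale) of the 42 translation factor genes, grouped by complex, with open points for replicate 1, filled points for replicate 2 and grey lines for the medians of mRNA genes with a mean count of 10 or more. Every gene lies further right in replicate 2, EEF2 and EEF1A1 lie furthest right, and EIF2B5, EIF2B4 and EIF2B2 furthest left.

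**Figure D2:**
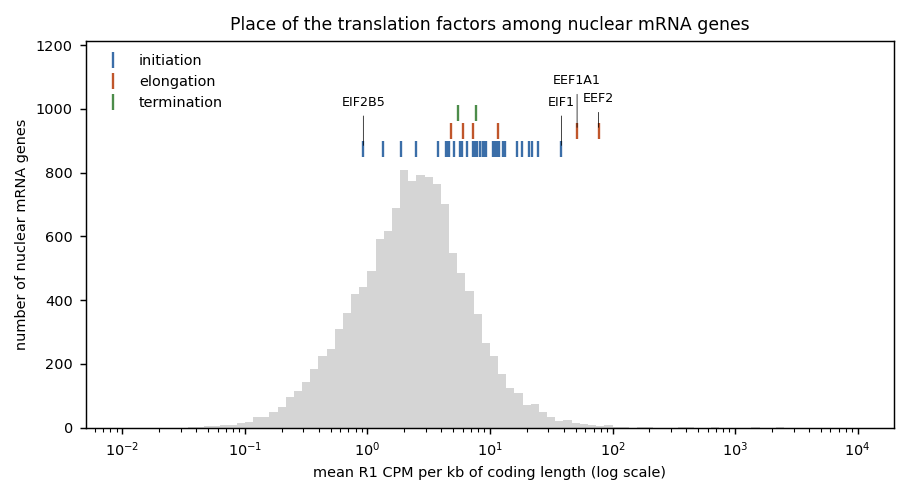
Number of mRNA genes with a mean count of 10 or more (grey bars) by mean R1 CPM per kilobase of coding length (log scale), with a tick for each of the 42 translation factors, coloured by class. Most ticks lie right of the peak of the bars, and EIF2B5, at 0.927, lies left of it.

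All 42 genes had more CPM in replicate 2, with ratios from 1.38 to 3.52 and a median of 2.40, and the median ratio of mRNA genes past the mean of 10 was 2.17. The SD of each gene mostly reflects this shared shift. Where genes or groups are said to differ by less than the spread, that spread holds the shift. It does not measure the error of a difference within a library, which was not tested. The order of the genes was similar in both libraries, with Spearman's rho of 0.981 across the 42 genes, which share library and depth and are not independent replicates. When levels were instead scaled to 1000000 mRNA gene counts, the median translation factor stood at 113 in replicate 1 and 141 in replicate 2. Together the 42 genes took 0.826% of mRNA gene counts in replicate 1 and 1.02% in replicate 2.

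EEF2 held the most counts of the 42 as listed. It encodes the GTPase of translocation and is listed as ENSG00000167658.15_2 on chromosome 19, 3976054 to 3985467, minus strand (hg19 here and below). It held 3208 and 5792 counts in replicates 1 and 2, which is 115 CPM (95% Clopper-Pearson interval 111 to 119) and 281 CPM (274 to 289). This was 25.8% and 25.9% of all counts of the 42 genes, and its CPM ranked 10 among the 20195 mRNA genes. Per coding kilobase it stood at 44.7 and 109 CPM, the highest of the 42 in both replicates where counts on copies elsewhere in the genome (described below) are left out. None of its coding sequence recurred exactly in another gene's transcripts in stretches of 30 bases, so no such copy was found. Shorter or inexact matches, UTRs and introns were not searched.

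EEF1A1, which encodes the main carrier of aminoacyl-tRNA to the ribosome, followed. It is listed as ENSG00000156508.17_3 on chromosome 6, 74225473 to 74233520, minus strand. It held 1018 and 2182 counts, or 36.5 CPM (34.3 to 38.8) in replicate 1 and 106 CPM (102 to 111) in replicate 2. Its level per coding kilobase was 51.4 ± 35.5 CPM against 77.0 ± 45.7 for EEF2 (SD, n = 2 each), a difference smaller than the spread, although EEF2 was higher within each replicate. That order turned when counts on the copies of EEF1A1 were added to it: EEF1A1 then held 4205 and 7762 counts, or 109 and 272 CPM per coding kilobase, above EEF2 in both replicates. EEF1A2 encodes the form known from muscle and neurons and shares 78.9% of 1379 aligned coding bases with EEF1A1. It held 159 and 227 counts, or 8.36 ± 3.77 CPM (SD, n = 2), and its level per coding kilobase, 6.02 ± 2.71 CPM, was below that of EEF1A1 in both replicates, without overlap of the values.

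The eEF1B subunits, which exchange GDP for GTP on eEF1A, were recovered less than EEF1A1. EEF1G (gamma, a structural subunit; chromosome 11, 62327073 to 62341558) held 216 and 468 counts, EEF1D (delta, an exchange factor) 150 and 307, and EEF1B2 (the other exchange factor) 80 and 142. Per coding kilobase they stood at 11.6 ± 8.08, 4.85 ± 3.22 and 7.23 ± 4.22 CPM (SD, n = 2 each), and in both replicates the order was EEF1G, EEF1B2, EEF1D. These neighbours differ by less than the spread between replicates. The place of EEF1D rests on its longest coding sequence, 2091 bases, against 675 for EEF1B2, and shorter forms were not used. In CPM without a length EEF1D, at 5.37 and 14.9, was above EEF1B2, at 2.87 and 6.90. With copies added the order per coding kilobase was the same, but EEF1G rose to 26.1 and 66.6 CPM per coding kilobase and EEF1B2 to 10.8 and 23.5. The difference between EEF1A1, at 26.3 and 76.5 CPM per coding kilobase, and EEF1G, at 5.90 and 17.3, left no overlap.

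EIF1 and EIF1AX, the small factors that help the ribosome select the start codon, were the initiation factors with the highest mean levels per coding kilobase as listed. With copies added, EIF5A came first, at 27.2 and 75.3 CPM per coding kilobase, above EIF1 at 23.0 and 61.8 and EIF1AX at 17.6 and 41.7. The sum for EIF5A takes in the whole count of EIF5AL1, which is itself a protein-coding gene, and can overstate EIF5A. EIF1 (ENSG00000173812.10_2; chromosome 17, 39845137 to 39848920) held 211 and 416 counts, or 20.8 and 55.7 CPM per coding kilobase. EIF1AX (ENSG00000173674.10_2; chromosome X, 20142636 to 20159962) held 173 and 308, or 14.3 and 34.6. Their coding sequences are short, 363 and 432 bases, whereas the counts cover UTRs and introns too, so this quotient is not a level of the coding sequence alone. In CPM without a length they stood at 13.9 ± 8.94 and 10.6 ± 6.19 (SD, n = 2 each).

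The 3 subunits of eIF2, the complex that carries the initiator tRNA, were recovered unequally. EIF2S3, the gamma subunit that binds GTP and the tRNA, held 343 and 498 counts, EIF2S1, the alpha subunit phosphorylated under stress, 107 and 172, and EIF2S2, the beta subunit, 108 and 110. Their levels per coding kilobase were 12.9 ± 5.94, 6.45 ± 3.38 and 4.61 ± 1.04 CPM (SD, n = 2 each). Within each replicate EIF2S3 was above EIF2S1 and EIF2S1 above EIF2S2, but between neighbours the replicate values overlapped. The order of the lower pair turned with copies added. EIF2S2 has 4 listed copies, and with their whole counts the sum was 168 and 206, with a mean of 8.02 CPM per coding kilobase. That sum, which can overstate EIF2S2, was above EIF2S1, which has no listed copies, in both replicates.

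The genes of eIF2B, the exchange factor that recycles eIF2, formed the complex with the lowest level per coding kilobase. Its 5 subunits had a median of 1.33 CPM per coding kilobase in replicate 1 and 2.40 in replicate 2, beside 1.48 and 3.22 for the mRNA genes with a mean count of 10 or more. EIF2B5, the catalytic epsilon subunit, held 25 and 65 counts, or 0.410 and 1.44 CPM per coding kilobase. EIF2B4 (delta) held 47 and 55, EIF2B2 (beta) 39 and 52, EIF2B1 (alpha) 58 and 148, and EIF2B3 (gamma) 113 and 167. EIF2B1 and EIF2B3 reached 5.06 ± 3.95 and 4.48 ± 2.12 CPM per coding kilobase (SD, n = 2 each), and EIF2B2 and EIF2B4 stayed at 1.86 ± 0.757 and 1.33 ± 0.428. The median of each other complex in replicate 1, the lowest being 3.94 CPM per coding kilobase for the release factors, was above that of eIF2B in replicate 2.

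The 13 genes of eIF3, the large scaffold on the small ribosomal subunit, spanned a severalfold range. In replicate 1 they ran from 2.68 CPM per coding kilobase (EIF3F) to 7.60 (EIF3H), and in replicate 2 from 4.77 (EIF3J) to 19.2 (EIF3I), with medians of 5.11 and 12.3. Their counts ran from 60 and 76 for EIF3J, a loosely attached subunit, to 463 and 662 for EIF3A, which encodes the largest subunit. Per coding kilobase, EIF3A stood at 5.88 ± 2.65 CPM, below EIF3I (13.3 ± 8.26), EIF3E (11.9 ± 6.07) and EIF3H (11.4 ± 5.41) in each replicate. With copies added, EIF3J was the lowest of eIF3, at 2.82 and 5.02 CPM per coding kilobase in replicates 1 and 2. EIF3E was then the highest, at 10.4 and 22.6. EIF3B, part of the conserved core, held 351 and 622 counts, and EIF3D, which can contact the mRNA cap, 255 and 435.

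The genes of cap recognition and mRNA unwinding had a median of 6.20 CPM per coding kilobase in replicate 1 and 15.1 in replicate 2. EIF4G2 encodes a scaffold that cannot bind the cap protein eIF4E (chromosome 11, 10818597 to 10830657) and held 693 and 1342 counts. EIF4G1, the main eIF4G scaffold (chromosome 3, 184032283 to 184053146), held 647 and 1261. Per coding kilobase EIF4G2 stood at 16.5 ± 10.5 and EIF4G1 at 8.76 ± 5.59 CPM (SD, n = 2 each), with EIF4G2 higher in each replicate by less than the spread between them. The helicase gene EIF4A1 held 386 and 634 counts and its relative EIF4A2 129 and 196. At 11.4 and 25.3 CPM per coding kilobase, EIF4A1 was above EIF4A2, at 3.78 and 7.78, without overlap. EIF4H and EIF4B encode RNA-binding helpers of the helicase. EIF4H stood at 11.9 and 32.0 CPM per coding kilobase from 248 and 490 counts, and EIF4B at 10.6 ± 6.28 from 320 and 574. EIF4E, the cap-binding protein itself, held 87 and 160 counts, or 7.32 ± 4.42 CPM per coding kilobase.

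Of the remaining initiation factors, EIF5A was the highest and EIF5B the lowest per coding kilobase. EIF5A, the hypusine-bearing factor that helps ribosomes past slow peptide bonds (chromosome 17, 7210318 to 7215782), held 161 and 356 counts, or 10.3 and 31.0 CPM per coding kilobase. EIF5, which triggers GTP hydrolysis by eIF2, held 230 and 420, or 6.37 and 15.8. EIF6, which keeps the large subunit from joining too early, held 65 and 123, or 3.17 and 8.13. EIF5B, the GTPase that joins the subunits, held 159 and 257, or 1.56 and 3.41. Of these 4, the values of EIF5A lay above both of EIF6 and of EIF5B, and those of EIF5 above those of EIF5B, without overlap.

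The release factors differed from each other by less than the spread between replicates. ETF1, which encodes the stop codon reader eRF1 (ENSG00000120705.12_3; chromosome 5, 137841784 to 137878989, minus strand), held 166 and 294 counts, or 5.95 and 14.3 CPM. GSPT1, which encodes its GTPase partner eRF3a (ENSG00000103342.12_4; chromosome 16, 11961985 to 12009939, minus strand), held 178 and 302, or 6.38 and 14.7 CPM. Per coding kilobase ETF1 stood at 7.71 ± 4.49 and GSPT1 at 5.51 ± 3.07 CPM (SD, n = 2 each). Their order thus turned with length: ETF1 was higher in each replicate per coding kilobase, and GSPT1 was higher in each in CPM.

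Grouped by their known TOP tracts, 11 of the 42 had a median of 10.5 ± 6.49 CPM per coding kilobase, beside 8.17 ± 4.75 for the 29 initiation factors without one (SD, n = 2 each), which differ by less than the spread. The 11 include all 6 elongation factors, EEF2 and EEF1A1 among them, and the rest are initiation factors. TOP tract and class thus cannot be told apart here. The 2 release factors are in neither group. Counts of the 42 followed coding length more than genomic span. Spearman's rho with coding length was 0.501 in replicate 1 and 0.473 in replicate 2, and with span 0.165 and 0.102. Over all mRNA genes with a mean count of 10 or more the order was the other way, with 0.271 and 0.252 for coding length and 0.405 and 0.353 for span. These are correlations across genes, which are not independent replicates.

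Copies elsewhere in the genome held many counts. A copy was taken as a gene elsewhere whose transcripts contain at least 10% of a factor's 30-base coding windows, a rule added after the data were seen. By it 21 of the 42 had 61 listed copies, 57 of them processed pseudogenes, and 58 had a count in each replicate. For 4 genes the copies together held more counts than the gene itself in both replicates. The 17 copies of EEF1A1 held 3187 and 5580 counts against its 1018 and 2182. EEF1G had 739 and 1331 on its copies against 216 and 468, EIF5A 262 and 509 against 161 and 356, and EEF1B2 124 and 184 against 80 and 142. How the authors placed reads that match several sites is not given in the sources used here, so the division of counts between these genes and their copies is uncertain.

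EEF1A1P5 led the EEF1A1 copies (chromosome 9, 135894873 to 135896261, plus strand). It is identical to EEF1A1 at 1382 of 1386 aligned coding bases and held 1905 and 3103 counts, or 187% and 142% of the counts of EEF1A1. AC002480.6 (chromosome 7, 22550235 to 22551618, minus strand) is named EEF1A1P6 in GENCODE 29 and is 99.5% identical. It held 815 and 1282 counts. Of the 30-base windows of EEF1A1, 98.5% recur in GENCODE 29 transcripts of genes elsewhere in the genome. A read of that length from most of its coding sequence thus also matches another gene. The stretch printed above, for example, is the same in EEF1A1 and EEF1A1P5.

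RP11-371A22.1 was the main copy of EEF1G (chromosome 7, 132719367 to 132720680, minus strand). It is 99.2% identical to the EEF1G coding sequence and held 576 and 1043 counts, more than EEF1G in both replicates. RP1-241P17.3, at 94.3% identity, held 163 and 288. For EIF5A the copies were EIF5AL1, a protein-coding relative on chromosome 10 (81272357 to 81276196) with 179 and 316 counts, and the pseudogene EIF5AP4 with 83 and 193. EIF3C shares 99.4% of its windows with others, mainly its protein-coding twin EIF3CL, which held 265 and 497 counts beside 348 and 600. With the copies' counts added, the median of the elongation factors was 36.5 CPM in place of 12.8, and that of the initiation factors 12.4 in place of 10.9. The whole count of each copy was added, also for protein-coding relatives, so these medians can be too high.

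**Figure D3:**
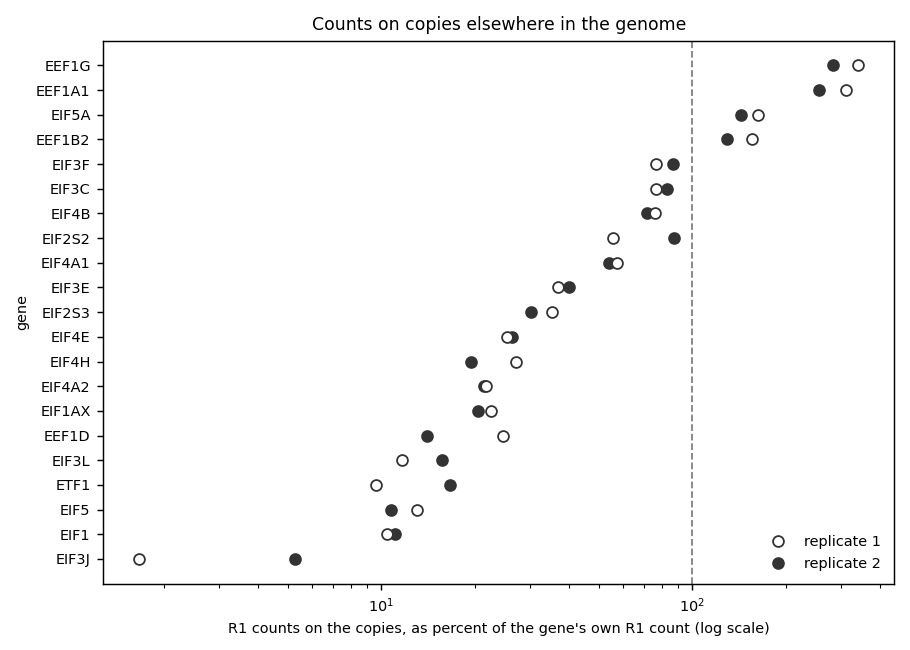
R1 counts on the listed copies of each of 21 translation factor genes as a percent of the gene's own count (log scale), with open points for replicate 1 and filled points for replicate 2. EEF1G, EEF1A1, EIF5A and EEF1B2 lie right of the dashed line at 100% in both replicates.

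For 16 of the 42, no 30-base coding window recurred elsewhere: EEF2, EEF1A2, EIF4G1, EIF4G2, EIF3A, EIF3B, EIF3D, EIF3G, EIF3H, EIF2S1, EIF6 and the 5 eIF2B genes. Their median of 6.28 ± 3.11 CPM per coding kilobase was lower than the 8.03 ± 4.73 of all 42 (SD, n = 2 each), by less than the spread.

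Overlapping features could share counts too. In 24 of the 42, a listed feature that overlaps the gene held a count of at least 10% of the gene's, in 21 of them on the other strand. That count covers the whole overlapping feature, most of which can lie outside the gene. In 8 of the 24 every such overlap was under 500 bases, the shortest being 19 bases of EEF1B2, so 24 is an upper limit. In 7 an overlap covered at least 50% of the gene's span. The antisense feature RP11-983P16.4 held 317 and 556 counts beside 320 and 574 for EIF4B. On the same strand, RP11-864I4.1 covers nearly all of EEF1G and held 257 and 552 counts, and the readthrough gene SENP3-EIF4A1 held 436 and 734 beside 386 and 634 for EIF4A1. RALY overlaps EIF2S2 by 20011 bases on the other strand and held 205 and 317 counts beside 108 and 110. RP11-57A19.4, on the other strand, covers the whole span of EIF3C, 47173 bases, and held 365 and 620 counts beside 348 and 600. Whether strand was used in counting is not given in the sources used here and was not tested, so reads of the overlapping part of a pair cannot be told apart. Clear of both copies and any such overlap were 7 genes, EEF2, EIF4G1, EIF3A, EIF3D, EEF1A2, EIF2B3 and EIF2B5, with a median of 6.02 ± 2.71 CPM per coding kilobase (SD, n = 2).

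The read mates gave similar counts for these genes. Their summed R2 counts were 89.5% of R1 in replicate 1 and 86.0% in replicate 2, and the whole tables' R2 totals were 40.3% and 42.7%. Summed over all mRNA genes the share was lower, 78.7% and 80.1%. The median over single genes was 88.5% and 84.6% for the translation factors. For mRNA genes with a mean count of 10 or more it was 87.9% and 84.7%, so the medians were close. EIF2S2 had the lowest R2 share in both replicates, 63.0% and 67.3%. In replicate 1 the R2 count exceeded the R1 count for EEF1G, EIF3I, EEF1A1 and EIF5A, and in replicate 2 for 0 genes.

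The only comparison the design holds is that of the 2 libraries. Each feature's split between them was tested against the ratio of library sizes scaled by the trimmed mean of M values (TMM), with an exact binomial test and Benjamini-Hochberg adjustment over 18723 features. It compares these libraries, not conditions, and covers counting error only. Of the 42 genes, 8 were higher in replicate 2 at an adjusted p under 0.05, beside 2.29% of all features tested, and 1 was lower, beside 6.52%, which makes 9 in either direction beside 8.80%. Of mRNA genes, 2.38% were higher and 2.57% lower. The genes with more counts can pass with smaller ratios: among features whose mean count was 50 or more, 10 of 40 translation factors were higher, beside 4.16% of mRNA genes and 3.91% of all features, and 1 was lower, beside 3.63% and 9.75%.

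The 8 genes were EEF2, EEF1A1, EEF1G, EIF4G1, EIF4G2, EIF4H, EIF5A and EIF2B1. On the log2 scale of TMM-scaled counts, replicate 2 over replicate 1, EEF1A1 was higher by 0.45 (adjusted p = 4.2e-15, exact binomial test) and EEF2 by 0.20 (adjusted p = 8.8e-09). EIF4G2 was higher by 0.30 and EIF4G1 by 0.31, and EEF1G, EIF5A and EIF4H by 0.46, 0.49 and 0.33. EIF2B1, from 58 and 148 counts, was higher by 0.70 (adjusted p = 0.022, exact binomial test). All 8 ratios were under 2-fold. With R2 counts, 6 of them passed again, and EEF1G and EIF4H did not, at 0.34 and 0.29 (adjusted p = 0.052 and 0.17, exact binomial test).

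EIF2S2 was the gene lower in replicate 2, by -0.63 on the same scale (adjusted p = 0.023, exact binomial test), from 108 and 110 counts. It did not pass in the R2 table, without the filter on low counts or with scaling to mRNA gene counts, where the ratio was -0.49, -0.57 and -0.51 (adjusted p = 0.30, 0.19 and 0.072, exact binomial test). With scaling to total counts EIF2S2 was instead higher, by 0.47. The median log2 ratio was 0.17 over the 42 genes and 0.02 over the mRNA genes, and 32 of the 42 were above 0. Total-count scaling adds 1.09 to every log2 ratio and then put all 42 genes higher, beside 81.3% of all features, and scaling to mRNA gene counts put 14 higher and 0 lower, beside 5.33% and 5.35% of all features.

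**Figure D4:**
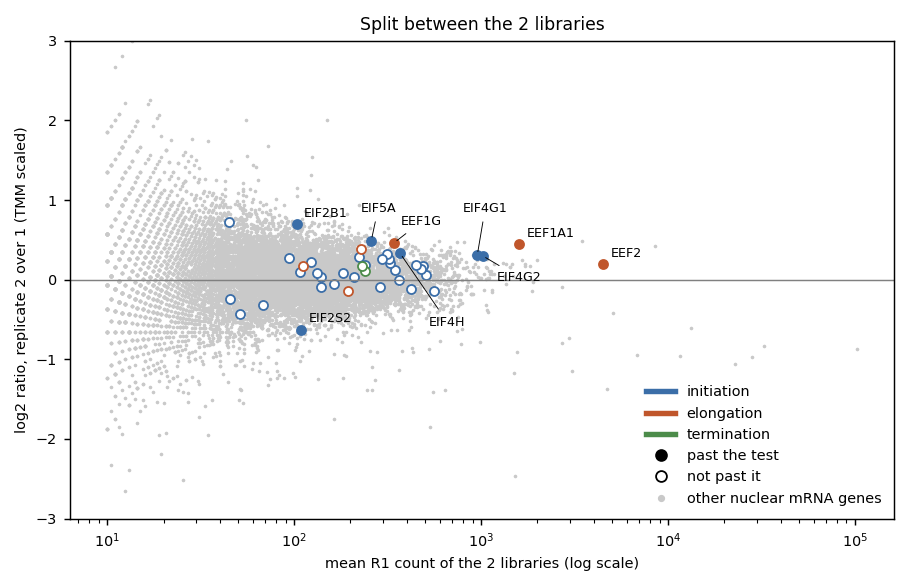
Log2 ratio of R1 counts in replicate 2 over replicate 1 after TMM scaling, by mean count (log scale), for translation factor genes (coloured by class, filled where the adjusted p was under 0.05) and other mRNA genes (grey). Points of 10 genes lie outside the axis range of 3 in either direction, and the filled points other than EIF2S2 lie above 0.

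Of the copies, 49 could be tested. In replicate 2, 9 were higher, beside 2.29% of all features, and 0 were lower, beside 6.52%. Of the 17 copies of EEF1A1, 8 were higher, by 0.52 to 2.57 on the log2 scale. These 8 share coding windows with EEF1A1, itself called higher, so they cannot be counted as independent features. The highest ratio, that of RP11-315J22.1, rests on 3 and 28 counts, with 3 and 7 in R2. EEF1AL12, with 12 and 59 counts, had 17 and 18 in R2, so its rise was not seen there. The other called copies of EEF1A1 rose in R2 beyond the ratio of TMM-scaled library sizes, but no R2 test is given for the copies. EEF1A1P5 and AC002480.6, which hold the most counts, stood at 0.05 and 0.00 and did not pass (adjusted p = 0.59 and 1, exact binomial test). The difference between gene and copy was not tested.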

How the data were processed

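The values the authors deposited are raw counts of reads for each listed feature, 1 table a mate and library. The tools were bedtools 2.24.0 and Bowtie2 2.3.5.1 with hg19, per the submitters' processing notes, and their options are not stated there. After 13 repeated lines were dropped, CPM was computed from each table's total, with R1 as the main table. Coding lengths, windows and sequences came from GENCODE 29 (GRCh38), matched by gene ID, so no coordinates were converted. Splits of R1 counts were put to an exact binomial test, two-sided, with TMM sizes (edgeR 4.0.16, R 4.3.3), Benjamini-Hochberg adjusted over features whose mean count was 10 or more. On simulated data with counting error only (18723 features, 200 changed), the test recovered 52% of 2-fold and 88% of 4-fold changes, 100% of the latter at a mean count of 50 or more, and called 0.016% of unchanged features. Alternatives were R2, the sum of mates, each replicate left out, other denominators and scalings (DESeq2 1.42.0), and other filters. All 42 genes could be named, and others as overlapping features, copies or the 2 to 4 highest of each list. The genes and lists were chosen with earlier results of these data known. Scripts ran in Python 3.11.15 (scipy 1.17.1, pandas 2.3.3, numpy 2.4.6, Biopython 1.88, matplotlib 3.10.9).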

Additional observations from a re-analysis of the deposited data

How the results depend on the processing

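With only 2 libraries, leaving one out cannot move a mean by 1 SD, so it is no sign of stability: the median CPM then ranged from 6.07 to 14.9 over all 42 genes, 5.98 to 15.9 for initiation, 6.72 to 18.8 for elongation and 6.16 to 14.5 for termination. In the R2 tables these medians were 20.7, 22.3, 27.8 and 19.9 CPM, and per 1000000 mRNA gene counts 127, 130.2, 151 and 125, in both cases over smaller totals. With the whole counts of copies elsewhere added, which was chosen after seeing the data and can overstate a gene, elongation stood at 36.5 CPM. EEF1A1 then came above EEF2, EIF5A above EIF1, and EIF2S2 above EIF2S1. The number of genes passing the exact binomial test was 42 with total counts and 14 with mRNA gene counts, and between 6 and 13 under the other alternatives. Of the 9 calls, 9 remained with DESeq2 size factors, with the sum of mates and with a minimum mean of 50, 8 without a filter and 6 in the R2 tables. Of the single genes' CPM, 9 of 42 moved by over 1 SD with copies added and 1 with nested non-coding features taken off. No paired analysis was possible because only 1 group exists.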

Other observations

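Lists of related genes gave the surroundings of these factors, as descriptions. Of 11 other initiation factors, 0 passed the exact binomial test between libraries in either direction, beside 8.80% of all features, so a count of 0 says little in a list of this size. EIF4G3, another eIF4G scaffold gene, held 607 and 844 counts in replicates 1 and 2, or 5.89 ± 2.56 CPM per coding kilobase, and PABPC1, the poly(A)-binding protein that contacts eIF4G, held 439 and 761, or 13.8 ± 7.87 (SD, n = 2 each). Of 16 genes that control translation factors, 15 were tested and 0 passed, beside the same 8.80%, which again says little. LARP1, which binds TOP mRNAs, held 637 and 1078 counts, or 12.3 ± 6.83 CPM per coding kilobase, and the kinase gene MTOR held 342 and 539, or 2.51 ± 1.29 (SD, n = 2 each).

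The 5 rescue, recycling and selenocysteine factors had a median of 7.78 CPM, with 216 and 370 counts for HBS1L, a ribosome rescue GTPase, and 229 and 329 for EEFSEC, which delivers selenocysteine tRNA. Of these 5, 0 passed, beside 8.80% of all features, which says little in so short a list. Of 7 genes found that modify eIF5A and eEF2, 1 was higher in replicate 2, beside 2.29% of all features: DPH2, an enzyme of diphthamide synthesis, with 17 and 75 counts. DPH2 and the mitochondrial factors MTRF1 and MRRF were named after their values were seen. The 9 mitochondrial translation factors had a median of 3.28 CPM and were led by TUFM, the mitochondrial elongation factor Tu, with 233 and 390 counts. Of these 9, 1 was higher in replicate 2, the ribosome recycling factor MRRF with 110 and 332 counts, and 1 was lower, the release factor MTRF1 with 59 and 49, beside 2.29% and 6.52% of all features. In R2, MRRF held 97 and 131 counts, beside TMM-scaled library sizes of 8040603 and 12299365. Its rise was thus not seen in R2. R2 counts were 45 and 42 for MTRF1 and 17 and 61 for DPH2, which kept their directions.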
